A study of Homo sapiens with 4 samples.

Results

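The NRF2 and thiol antioxidant genes examined here are 10 genes, NFE2L2, KEAP1, NQO1, GCLC, GCLM, TXN, TXNRD1, SRXN1, GSR and PRDX1, chosen by symbol from the 12912 genes of the count table. Each symbol occurred there once, and all 10 genes had enough counts to be tested. The cells were 786-O, a human clear cell renal cell carcinoma line that is VHL-null, in a version with a triple reporter (GFP, luciferase and thymidine kinase) in both groups. The 2 libraries of 786-O-Ctrl came from the VHL-null cells, and the 2 libraries of 786-O-VHL from cells in which VHL was restored with a retroviral vector for HA-tagged VHL. Both sublines were grown in RPMI1640 with serum. The question was which mRNA levels differ once VHL is back, and each group is 1 subline, so p-values measure the spread between libraries that may be technical replicates.

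NRF2, the protein of NFE2L2, is a transcription factor that turns on antioxidant genes through antioxidant response elements in their regulatory DNA. KEAP1 binds NRF2 and hands it to a CUL3 ubiquitin ligase for destruction, and oxidants and electrophiles block this step. The targets feed a pair of thiol systems that draw reducing power from NADPH, the glutathione system (GCLC, GCLM, GSR) and the thioredoxin system (TXN, TXNRD1, PRDX1, SRXN1). In kidney, NRF2 is known for protecting tubule cells against oxidative injury.

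The antioxidant response element can be read in the promoters of some of these genes. RefSeq promoter windows (GRCh38.p14, 250 bases before to 50 bases after a transcription start) were available for 8 of the 10 genes, with 11 windows in all, and GSR and PRDX1 were not matched. The core TGACNNNGC was searched on both strands and occurred in 4 of the 11 windows, those of GCLM, KEAP1 and TXNRD1, against 13.3% of all 35116 windows. The matches are shown because of the 8 genes only these had the core in a window, and their mRNAs moved in different directions, with TXNRD1 higher and GCLM and KEAP1 lower in 786-O-VHL. Each is printed on the strand of the gene with 10 bases on either side and the core, or its reverse complement GCNNNGTCA, in capitals.
GCLM, chr1:93909446-93909474, minus strand, core at -34 to -26 from the start: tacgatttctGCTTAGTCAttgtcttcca
KEAP1, chr19:10502807-10502835, minus strand, core at -54 to -46: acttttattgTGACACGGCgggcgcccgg
KEAP1, chr19:10502784-10502812, minus strand, core at -31 to -23: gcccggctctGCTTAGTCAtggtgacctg
TXNRD1, chr12:104215670-104215698, plus strand, core at -99 to -91: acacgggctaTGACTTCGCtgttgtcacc
TXNRD1, chr12:104215761-104215789, plus strand, core at -8 to 1: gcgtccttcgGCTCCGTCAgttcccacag
TXNRD1, chr12:104286920-104286948, plus strand, core at -102 to -94 from its other start: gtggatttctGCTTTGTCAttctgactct
Of the hypoxia response element cores, ACGTG was in 0 of the 11 windows (21.4% of all windows) and GCGTG in 9 of the 11, covering all 8 genes (36.5% of all windows). The AP-1 core TGANTCA was in 0 of the 11 (7.71% of all windows). Windows were not matched for base composition, so no enrichment is read from these shares. A match describes the letters only and does not show that a factor binds there. Sequence outside the windows was not searched, so the lack of a match does not show that a gene lacks the element.

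Depth differed between libraries. Counts summed to between 15714166 and 22141263 in 3 libraries and to 2807779 in 786-O-VHL replicate 1, where 3 counts correspond to 1.02 CPM (depth-scaled counts, with edgeR's TMM factors). The controls are told apart by depth, as deeper and shallower, because their columns have 1 name between them. VHL itself was 3.88-fold higher in 786-O-VHL (log2 fold change 1.96, edgeR FDR = 2.86e-19), although counts cannot separate vector from endogenous transcripts. Of 10 renal epithelial and renal carcinoma genes all 10 were tested, among them PAX8 at between 137 and 277 CPM, and CA9 did not exceed 1.196 CPM. Of 12 genes typical of other cell types, COL1A1, ACTA2 and PDGFRB passed the filter, at between 3.28 and 9.26 CPM.

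The 10 genes did not move as a block. With VHL restored, 3 rose (NFE2L2, TXNRD1, GCLC), 6 fell (PRDX1, TXN, GCLM, SRXN1, KEAP1, NQO1) and GSR was not called. In bulk RNA, fewer cells with a transcript and less of it per cell cannot be told apart. The test was edgeR's quasi-likelihood test with Benjamini-Hochberg adjustment (FDR) over all 12335 genes tested, and calls were made at an FDR under 0.05. At this threshold 64.5% of all genes tested were called, 32.6% as higher and 31.9% as lower, so 9 of 10 called genes stand against a background in which most genes are called. Without the deeper 786-O-Ctrl library 3 of the 10 genes were lower (PRDX1, TXN and GCLM) and 2 higher, and calls over all genes were also fewer in that fit, with 25% of genes lower and 24.2% higher. The median log2 fold change of the 10 genes was -0.28, beside 0.02 for all genes tested. None of the 10 reached the threshold of |fold change| > 4 with FDR < 0.01, which 4.46% of all genes passed, and only PRDX1 changed by over 2-fold with FDR < 0.05 (17.5% of all genes). The libraries of the groups did not overlap for any of the 10 genes, as was the case for 80% of all genes tested.

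**Figure D1:**
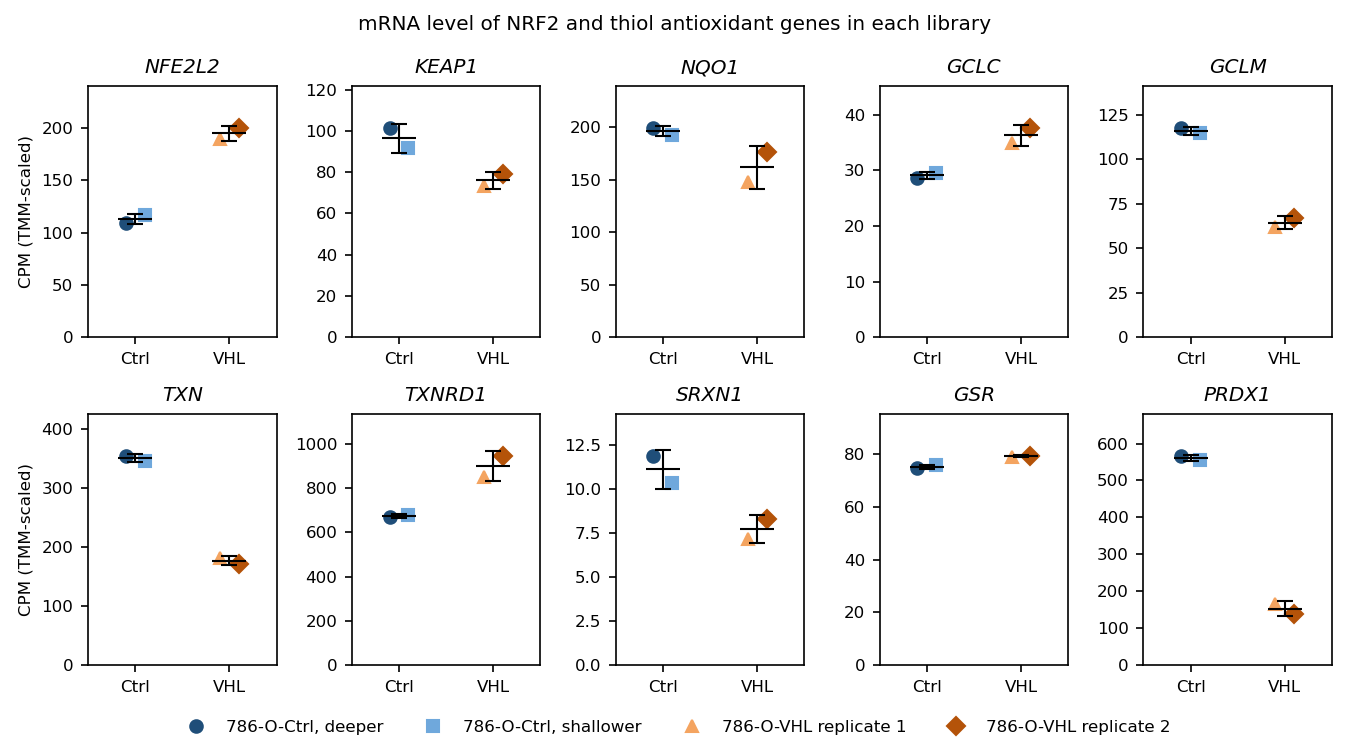
Level of each gene in each library, in TMM-scaled CPM on axes that start at 0. Points are libraries, horizontal bars are group means and whiskers are SD (n = 2). PRDX1, TXN and GCLM have the largest relative falls in 786-O-VHL and NFE2L2 the largest relative rise, while the 4 libraries of GSR lie between 74.7 and 79.5 CPM.

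The regulator pair moved apart. NFE2L2 (ENSG00000116044.16, GRCh37 chromosome 2 from 178083395 to 178257484, minus strand) encodes NRF2. Its mRNA was at 109 and 117 CPM in 786-O-Ctrl, where the deeper library is always given first, and at 190 and 200 CPM in 786-O-VHL replicates 1 and 2. Both 786-O-VHL libraries were thus well above both controls, by 1.74-fold (log2 fold change 0.80, standard error 0.0652, edgeR FDR = 1.46e-11). The gene span overlaps HNRNPA3 and AGPS on the opposite strand, and neither shares a base with the exons of the canonical NFE2L2 transcript. An annotated lncRNA on that strand shares 190 bases with these exons. Exons outside the canonical transcript were not compared. HNRNPA3 had a log2 fold change of -1.32, and AGPS had one of -0.06 with a 95% interval from -0.19 to 0.07.
KEAP1 (ENSG00000079999.14, chromosome 19 from 10596801 to 10614234, minus strand) encodes the adaptor that marks NRF2 for degradation. Its libraries read 101 and 91.5 CPM in 786-O-Ctrl against 73.3 and 79.0 CPM in 786-O-VHL. The fall, to 80.1% of the control level, was small (log2 fold change -0.32, standard error 0.0737, edgeR FDR = 0.000414). Without the deeper control library it was -0.25 and missed the threshold (edgeR FDR = 0.0554). NRF2 is regulated mainly as a protein, and its protein level was not measured in these libraries.

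NQO1 (ENSG00000181019.13, chromosome 16 from 69740899 to 69760571, minus strand) encodes a quinone reductase and is a standard readout of NRF2. It stood at 199 and 193 CPM in the control libraries and at 147 and 176 CPM after VHL restoration. The spread within 786-O-VHL (SD 20.3 CPM, n = 2) was wide beside the difference between group means of 196 and 162 CPM. The log2 fold change was -0.24 (standard error 0.0704, edgeR FDR = 0.0039). It ranged from -0.16 without 786-O-VHL replicate 1 to -0.42 without replicate 2, and the call was lost without the deeper control library (-0.24, edgeR FDR = 0.0584). With scaling by library totals it was -0.11 (edgeR FDR = 0.175). NQO1 mRNA was thus lower in the subline in which NFE2L2 mRNA was higher. An annotated lncRNA on the opposite strand shares 575 bases with the canonical NQO1 exons.

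Glutathione genes split within 1 enzyme. Glutamate-cysteine ligase, the rate-limiting enzyme of glutathione synthesis, is made of the catalytic subunit GCLC and the modifier subunit GCLM, which raises its efficiency. GCLC (ENSG00000001084.13, chromosome 6 from 53362139 to 53481768, minus strand) rested on 604 and 444 counts in 786-O-Ctrl and on 103 and 634 counts in 786-O-VHL. These are 28.7 and 29.5 CPM against 34.9 and 37.6 CPM. The rise was 1.27-fold (log2 fold change 0.35, standard error 0.0997, edgeR FDR = 0.00341). A lncRNA annotated on the opposite strand shares 252 bases with the canonical GCLC exons. The GCLC call was lost without the deeper control library (0.31, edgeR FDR = 0.0814) and without 786-O-VHL replicate 2 (0.26, edgeR FDR = 0.19), and DESeq2 did not make it (0.32, FDR = 0.0917).
GCLM (ENSG00000023909.10, chromosome 1 from 94350755 to 94375012, minus strand) went the opposite way. It was at 118 and 115 CPM in 786-O-Ctrl and at 61.7 and 66.9 CPM in 786-O-VHL. The 786-O-VHL mean was 56.4% of the control level (log2 fold change -0.83, standard error 0.0713, edgeR FDR = 5.05e-11). Omitting any single library kept it between -0.92 and -0.80.
GSR (ENSG00000104687.14, chromosome 8 from 30535583 to 30585363, minus strand) encodes glutathione reductase, which returns oxidized glutathione to its reduced form. It was at 74.7 and 75.8 CPM in 786-O-Ctrl and at 79.0 and 79.5 CPM in 786-O-VHL. The log2 fold change was 0.08 with a 95% interval from -0.07 to 0.22 (edgeR FDR = 0.35). Scaling by library totals made it 0.21 (edgeR FDR = 0.0104), under which the median of all genes tested moved to 0.15.

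Thioredoxin system genes showed both the largest fall and a rise. Thioredoxin reductase, encoded by TXNRD1, uses NADPH to reduce thioredoxin, encoded by TXN, which in turn reduces peroxiredoxins that break down hydrogen peroxide. PRDX1 (ENSG00000117450.14, chromosome 1 from 45976586 to 46008404, minus strand) encodes an abundant cytosolic peroxiredoxin. It dropped from 567 and 556 CPM in 786-O-Ctrl to 166 and 138 CPM in 786-O-VHL. Its 11948 and 8368 counts in the control libraries and 490 and 2332 counts in the 786-O-VHL libraries leave little counting error. The difference was 3.79-fold (log2 fold change -1.92, standard error 0.0731, edgeR FDR = 8.82e-19), and only 1.73% of all genes tested had a lower log2 fold change. MMACHC on the opposite strand shares 364 of the 945 bases of the canonical PRDX1 transcript, but its mean levels were 9.83 and 12.7 CPM in the groups.
TXN (ENSG00000136810.13, chromosome 9 from 113006090 to 113018787, minus strand) was at 355 and 346 CPM in 786-O-Ctrl and at 182 and 172 CPM in 786-O-VHL. This was 50.04% of the control level (log2 fold change -0.999, standard error 0.0649, edgeR FDR = 1.19e-13). The annotation names 7 pseudogenes of TXN and 1 of PRDX1, and reads shared with such copies could have been split in the counting.
TXNRD1 (ENSG00000198431.16, chromosome 12 from 104609557 to 104744085, plus strand) was higher after VHL restoration. Its libraries were at 668 and 679 CPM in 786-O-Ctrl and at 851 and 948 CPM in 786-O-VHL. The rise was 1.34-fold (log2 fold change 0.42, standard error 0.0622, edgeR FDR = 1.06e-06). It held when any single library was omitted, between 0.33 and 0.49.
SRXN1 (ENSG00000271303.1, chromosome 20 from 627259 to 633844, minus strand) encodes sulfiredoxin, which repairs over-oxidized peroxiredoxins. It had the fewest counts of the 10 genes, 250 and 155 in 786-O-Ctrl and 21 and 139 counts in 786-O-VHL. In CPM these were 11.9 and 10.3 against 7.12 and 8.25. Its level fell by 0.48 on the log2 scale, with a standard error of 0.179 (edgeR FDR = 0.022). The call was lost without the deeper control library (-0.38, edgeR FDR = 0.238), without 786-O-VHL replicate 2 (-0.65, edgeR FDR = 0.0948) and with DESeq2 (-0.51, FDR = 0.142). An annotated gene on the same strand shares 2292 of the 2528 bases of the SRXN1 exons, so the counts of SRXN1 are uncertain.

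**Figure D2:**
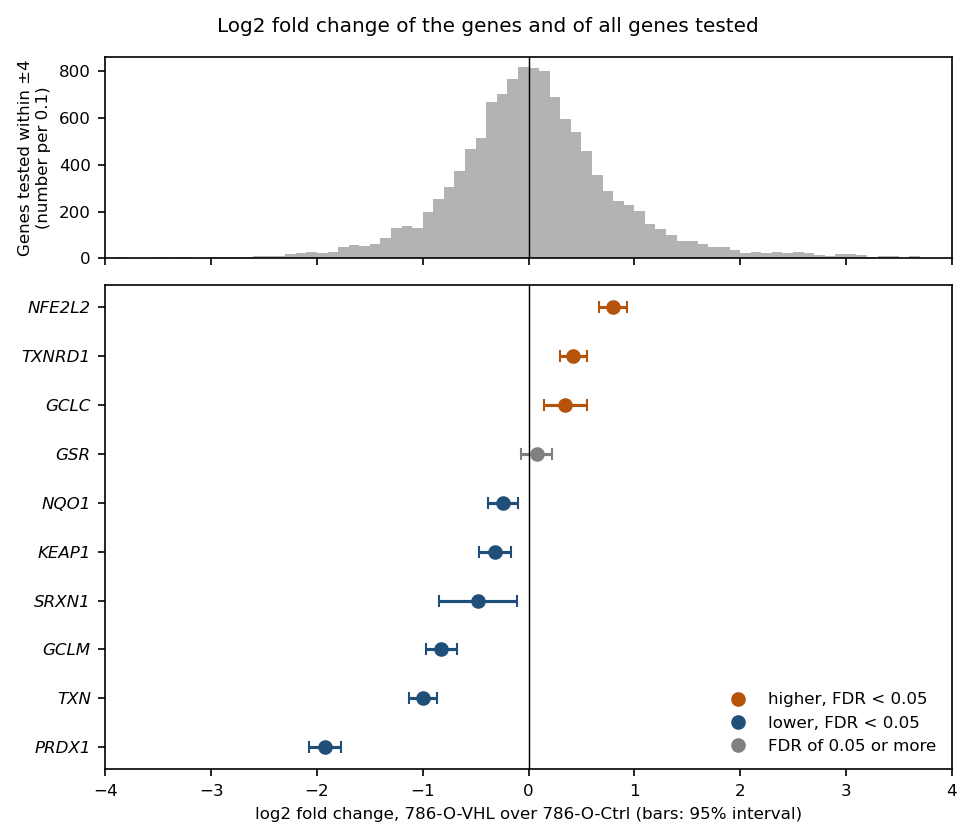
Log2 fold change of 786-O-VHL over 786-O-Ctrl. The upper panel is a histogram of the genes tested (87 lie outside the plotted range), the lower panel gives the 10 genes with their 95% intervals, colored by direction and FDR. PRDX1, at -1.92, lies in the lower tail of all genes, and the interval of GSR spans 0.

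Ratios between pairs of genes within a library do not depend on how libraries were scaled. A two-sided exact permutation test of 2 libraries against 2 cannot go below p = 0.333, and all 6 ratios compared reached that value, also after Benjamini-Hochberg adjustment over the 6. The GCLC count was 0.244 and 0.258 of the GCLM count in the controls and 0.566 and 0.563 of it in 786-O-VHL. The balance of the subunit mRNAs thus shifted by 1.17 on the log2 scale toward the catalytic one, beside SDs of 0.0568 and 0.0052 within the groups.
Counts of TXNRD1 were 1.88 and 1.97 times those of TXN in 786-O-Ctrl and 4.67 and 5.53 times in 786-O-VHL, a log2 difference of 1.40. The ratio of NFE2L2 to KEAP1 went from 1.08 and 1.27 to 2.59 and 2.54, a log2 difference of 1.13. Both ratios were higher in each 786-O-VHL library than in each 786-O-Ctrl library, a separation that was not counted over other gene pairs.
The ratio of SRXN1 to its substrate PRDX1 was higher by 1.36 on the log2 scale in 786-O-VHL, though SRXN1 rests on 21 counts in 786-O-VHL replicate 1. PRDX1 fell relative to TXN, from 1.60 and 1.61 to 0.912 and 0.807 (log2 difference -0.90). GSR fell relative to TXNRD1 by 0.34 on the log2 scale, from 0.112 in both control libraries to 0.0929 and 0.0838. Such count ratios carry the lengths of both genes, so only their change between groups can be read.

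**Figure D3:**
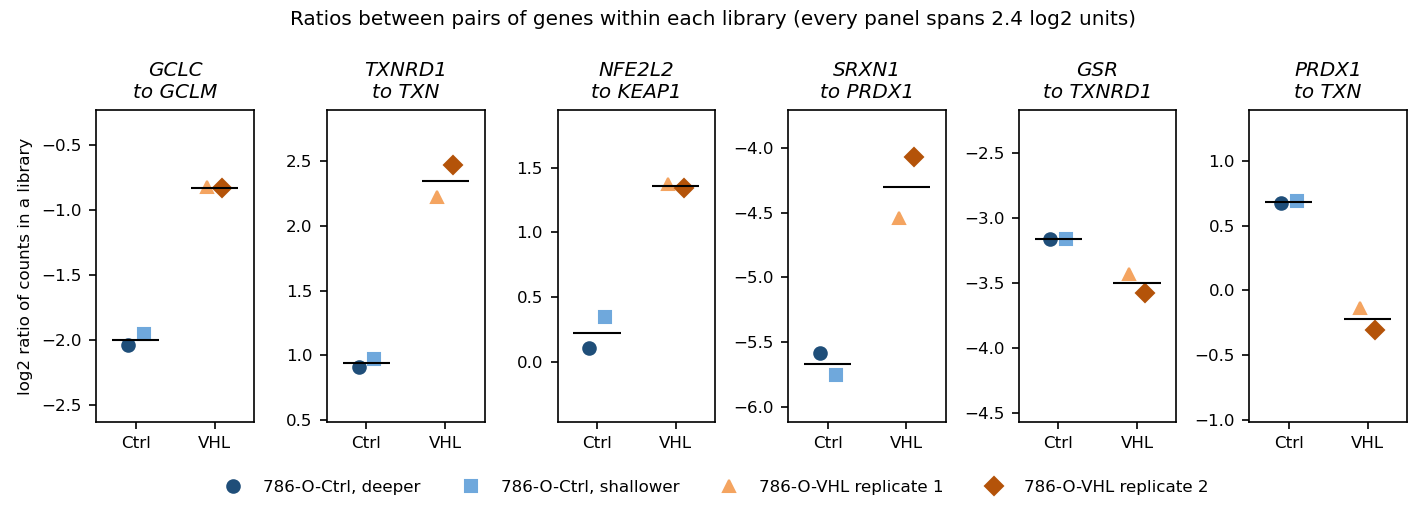
Log2 ratio of the counts of a gene pair within each library. Points are libraries, horizontal lines are group means (n = 2), and every panel spans 2.4 log2 units. The libraries of the groups are apart in all 6 panels. Separation was not counted over other gene pairs, and the groups did not overlap in CPM for 80% of single genes tested. GCLC to GCLM, TXNRD1 to TXN, NFE2L2 to KEAP1 and SRXN1 to PRDX1 were higher in 786-O-VHL.

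Levels of different genes were compared as CPM per kilobase of annotated exons. In 786-O-Ctrl, TXN (347) and PRDX1 (334) were the most abundant of the 10 mRNAs by this measure, followed by TXNRD1 (100.4) and NQO1 (66.0). After VHL restoration TXN was still first at 175, with TXNRD1 next at 134 and PRDX1 after it at 90.6. At the low end GCLC (3.38 in the controls, 4.21 with VHL restored) and SRXN1 (4.39 and 3.04) changed places, but with the length of the canonical transcript GCLC (7.69 and 9.59) was above SRXN1 in both groups. TXN and PRDX1 differed by little more than their libraries in 786-O-Ctrl, at 352 and 342 against 337 and 331. Their order depended on the length used, and with the length of the canonical transcript PRDX1 was first in 786-O-Ctrl. NFE2L2, whose annotated exons cover 14975 bases against 2446 in its canonical transcript, moved from place 7 to place 4 in 786-O-VHL with that length.

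Genes of the wider pathway were called in both directions, in shares read here against the 32.6% higher and 31.9% lower of all genes tested. NRF2 needs a small MAF protein to bind DNA, and of 14 genes for partners and control of NRF2, 6 rose (42.9%), 4 fell (28.6%) and 4 were not called. Their median log2 fold change was 0.15. The small MAF genes MAFF and MAFK rose by 0.96 and 0.66 on the log2 scale, and so did NFE2L1 (0.87), a relative of NRF2, and SQSTM1 (0.53), whose protein p62 binds KEAP1. Lower mRNAs were those of DPP3 (-1.80), another KEAP1-binding protein, of RBX1 (-0.84) and CUL3 (-0.50), subunits of the ligase that KEAP1 serves, and of NFE2L3 (-0.17).

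Among 31 other NRF2 target genes 27 were tested, of which 10 rose, 10 fell (37% each) and 7 were not called, and the median log2 fold change was 0.00. The largest rises were those of AKR1C3 (2.002) and AKR1C1 (1.76), aldo-keto reductases, of the efflux pump ABCC3 (1.29) and of the epoxide hydrolase EPHX1 (0.92). The AKR1C genes are related in sequence, so some reads may be split between them, and AKR1C1 had only 28 and 24 counts in 786-O-Ctrl. AKR1C3 was the only gene of this list past 4-fold with FDR < 0.01.
The largest falls were those of PGD (-1.32), which makes NADPH in the pentose phosphate pathway, CBR3 (-1.22), PIR (-0.80) and ME1 (-0.60), which also makes NADPH. CBR3 had 2 counts in 786-O-VHL replicate 1. Singled out after their values were seen, TALDO1 and TKT of the pentose phosphate pathway also fell, with log2 fold changes of -0.52 and -0.47. The same holds for HMOX1, a further standard readout of NRF2, which was at 48.4 and 44.5 CPM in 786-O-Ctrl and at 54.6 and 45.0 CPM in 786-O-VHL, so that the groups overlapped (log2 fold change 0.02, edgeR FDR = 0.83). In the same way SLC7A11, the cystine importer that supplies cysteine for glutathione, was seen to rise by 0.67.

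Of 21 other thioredoxin, peroxiredoxin, glutaredoxin and methionine sulfoxide reductase genes 20 were tested, with 3 higher (15%), 6 lower (30%), 11 not called and a median of -0.10. TXNIP, whose protein binds and inhibits thioredoxin, had by far the largest rise (4.35), and MSRB2 (0.79) and TXNRD2 (0.22, edgeR FDR = 0.0375, with overlapping libraries) followed. PRDX4 (-0.64), GLRX5 (-0.58), GLRX3 (-0.52) and MSRB3 (-0.42) fell most. The peroxiredoxin family was then read as a whole because PRDX1 had fallen, a choice made after its values were seen. PRDX6 fell by 0.30, and PRDX2 (0.12), PRDX3 (-0.08) and PRDX5 (-0.13, edgeR FDR = 0.0741) were not called. The unadjusted 95% intervals ran from -0.01 to 0.25 for PRDX2, from -0.21 to 0.05 for PRDX3 and from -0.2544 to -0.0001 for PRDX5. The interval of PRDX1, from -2.07 to -1.77, overlaps none of those.

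Among 20 other genes of glutathione synthesis, breakdown and transfer, 18 were tested, 8 rose (44.4%), 6 fell (33.3%) and 4 were not called, with a median of 0.29. GSTO2 (2.52) rose most, from 19 and 26 counts in 786-O-Ctrl to 21 and 123 counts in 786-O-VHL, which are far apart in depth. CHAC1 (1.74), an enzyme that degrades glutathione, MGST1 (0.80) and GSTA4 (0.65) came next. GGCT (-0.97), GSTP1 (-0.84), GSTO1 (-0.66) and MGST3 (-0.50) fell most. Without 786-O-VHL replicate 2 the number that rose was 4, in a fit in which 23.5% of all genes rose. Of the superoxide dismutases and catalase, CAT rose (0.60), SOD1 (-0.66) and SOD2 (-0.39) fell and SOD3 was not called (0.12). Fewer of them fell without 786-O-VHL replicate 2, in a fit in which fewer of all genes tested fell too.

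**Figure D4:**
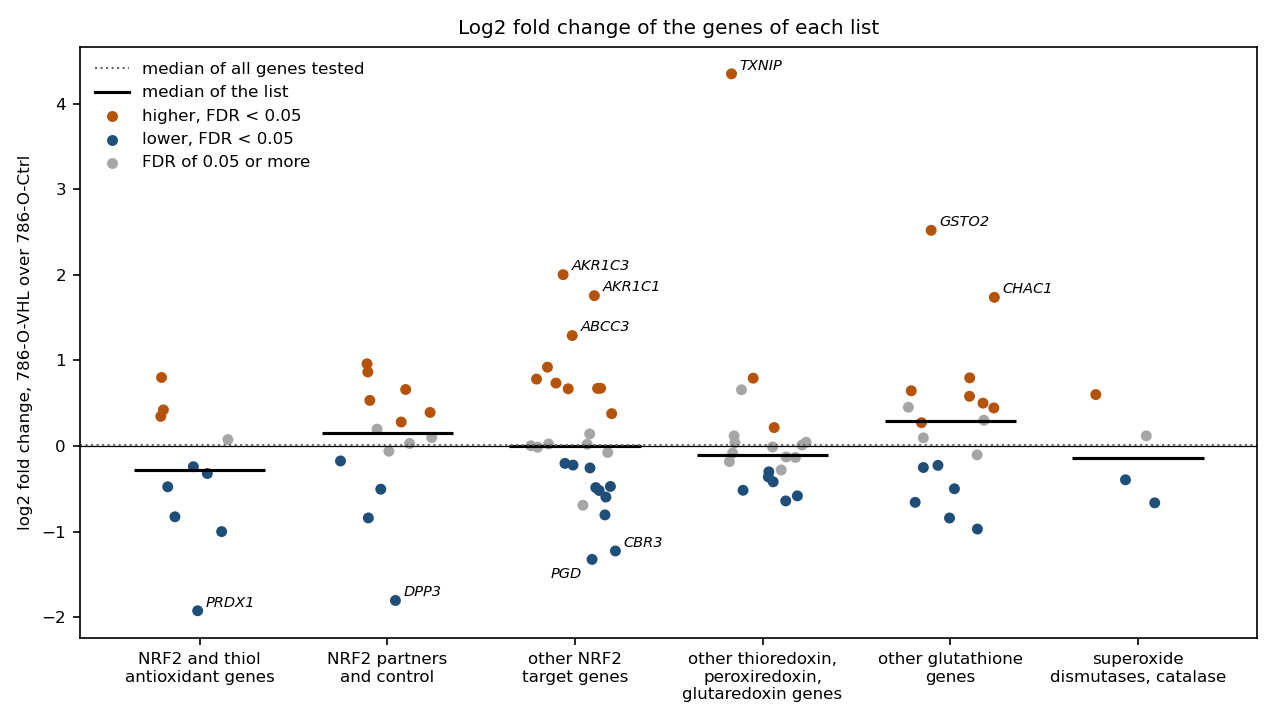
Log2 fold change of 786-O-VHL over 786-O-Ctrl for the tested genes of each list, 1 point a gene, colored by direction and FDR. Solid bars are list medians and the dotted line is the median of all genes tested (0.02). Every list holds genes that rose and genes that fell, and PRDX1, DPP3, AKR1C3, TXNIP and GSTO2 lie farthest from 0 in their lists.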

How the data were processed

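RNA-seq was performed on 2 libraries of each subline (786-O-Ctrl, 786-O-VHL), made from total RNA with an Illumina TruSeq RNA kit. The authors aligned reads to hg19 and deposited raw counts per gene, without normalization. The submitters' processing notes name CASAVA and STAR, while the sources used here do not say which tool and annotation were used for counting, or whether strand was. The test was edgeR's (version 4.0.16, under R 4.3.3). The filter (filterByExpr, minimum count 10) left 12335 genes and removed 577, scaling was by TMM, and the quasi-likelihood test had the group as its only term. Standard errors are those implied by the F statistic. The biological coefficient of variation was 4.31%. Replicates differed by more than sampling noise (chi-square per degree of freedom 2.25 and 2.76). Positions, exon lengths and overlaps came from GENCODE 44 on GRCh37, in which 12749 of 12912 identifiers were found. On simulated counts for this comparison edgeR recovered 192 of 200 changed genes among 12335, with 2 false calls. Recovery at log2 fold changes as small as those of KEAP1, NQO1, GCLC and SRXN1 was not tested separately. Alternatives used DESeq2 1.42.0 and limma 3.58.1 (voom). Limits from a count of 3 cover counting error only.

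All 10 members are named, and of each wider list at most 4 genes per direction with the largest log2 fold change at FDR < 0.05. Members and lists were chosen with earlier results of these data known. HMOX1, SLC7A11, TALDO1, TKT, PRDX2, PRDX3, PRDX5, PRDX6, SOD3 and the cell identity and overlapping genes with values fall outside this rule and were named after their values were seen. A further result is not reported here.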

Additional observations from a re-analysis of the deposited data

How the results depend on the processing

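All 10 genes kept their direction under DESeq2, limma-voom, RLE size factors, library totals, no filter, at least 10 counts in every library, thinning to the shallowest library, a prior count of 2 and each library left out in turn. NFE2L2, GCLM, TXN, TXNRD1 and PRDX1 also kept their call under all 12 alternatives. With DESeq2, GCLC (0.32) and SRXN1 (-0.51) lost it, other NRF2 targets that fell numbered 6 and glutathione genes that rose 5. Calls over all genes tested were also fewer with DESeq2, at 23.2% higher and 25.5% lower. With library totals 62.1% of called genes were higher (50.5% with TMM) and the median of all genes was 0.15. NQO1 (-0.11) and SRXN1 (-0.34) lost the call there, and GSR (0.21) gained it. In that fit 6 other thioredoxin and related genes rose, and 41.2% of all genes tested were higher. With thinning, NQO1 (-0.21) and SRXN1 (-0.62) lost the call, and other NRF2 targets that fell numbered 5. Over all genes tested 25.6% were then higher and 26% lower. The log2 differences of GCLC to GCLM and GSR to TXNRD1 were 1.42 and -0.45 with thinning, which was a single random draw of reads. What caused these changes was not tested.

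When 1 library at a time was omitted, the log2 fold change ranged from -0.41 to -0.25 for KEAP1, from -0.42 to -0.16 for NQO1, from 0.26 to 0.37 for GCLC and from -0.65 to -0.38 for SRXN1. The number of the 10 genes that fell ranged from 3 to 6, of glutathione genes that rose from 4 to 8, and of superoxide dismutases and catalase that fell from 1 to 2. A fit that leaves 1 library in a group assumes that it varies like the other group. No paired analysis was possible because both 786-O-Ctrl columns carry the same replicate number. The length of the canonical transcript was added after the data were seen. In 786-O-VHL replicate 1, the shallowest library, SRXN1, CBR3, AKR1C1, GSTA4 and GSTO2 had between 2 and 21 counts, which limits their precision.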
